A study of Drosophila melanogaster with 4 samples.

Results

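The genes described here are the well-expressed long noncoding and antisense RNA genes of Drosophila flight muscle myoblasts, the muscle precursors that lie on the wing disc. A gene belonged to the set when its symbol began with lncRNA: or asRNA:, when it was not one of the dosage compensation RNAs roX1 and roX2, and when its mean over the 4 libraries was at least 5 CPM. CPM is the count of a gene for every 1000000 counts of its library. The genes were thus chosen by their measured CPM. The rule took 289 of the 2390 noncoding genes with these prefixes, 225 of them with the asRNA prefix and 64 with the lncRNA prefix, out of 17494 genes in all. The level used by the rule was the mean of both groups together, so the levels below are a description. The difference between the groups was not itself a criterion. However, 2 genes had a control mean under 5 CPM and 3 an Antp RNAi mean under 5 CPM. These entered the set only through the other group, and their change is not independent of the choice.

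RNA was sequenced from myoblasts sorted by GFP fluorescence from wing discs at 0 h after puparium formation, from animals kept at 29°C, with 30 to 35 discs pooled, about 50000 cells and 2 ng of RNA per library. All 4 libraries carried Mef2-Gal4, a driver active in the muscle lineage and in other Mef2-expressing cells, and by the genotype labels UAS-GFPnls, although the protocol in the labels names the actin-binding GFP::Gma. The control group (2 libraries, replicates 2 and 3) carried UAS-Y RNAi, a hairpin against the pigmentation gene yellow, and is also labelled wild type, whereas the Antp RNAi group (2 libraries, replicates 1 and 2) carried UAS-Antp RNAi, a hairpin against the Hox gene Antennapedia. The comparison asks which transcripts depend on Antp in these precursors. The labels and the methods differ on whether repeats were separate biological samples or technical repeats of 1 sample, so that the p-values measure the spread between these libraries, which may be technical. In bulk RNA of this kind, fewer cells of a type and less RNA per cell cannot be told apart.

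Long noncoding RNAs are transcripts without a long open reading frame, and many are transcribed by RNA polymerase II, capped and polyadenylated like messenger RNAs. Antisense RNAs run across another gene on the opposite strand, and some act on the gene they cross, for example through its chromatin, transcription or splicing, while for most members in Drosophila no function is known. A few noncoding transcripts have well-described roles, among them Hsromega, whose nuclear RNA gathers RNA-binding proteins in omega speckles, and host transcripts that carry small nucleolar RNAs in their introns. The cDNA kit primes on poly(A) tails and, like the tagmentation step that followed, does not mark which strand a read came from, so an antisense RNA and its sense partner are measured together wherever their exons coincide.

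Total counts ran from 42110502 to 53957914 per library. Antp, the target of the hairpin, had 10214 and 9356 counts in the controls against 5723 and 6629 under Antp RNAi (log2 fold change −0.38, adjusted p = 0.145). Yellow, the target in the controls, had 0 counts in both control libraries, which allows up to 3 counts in each, against 382 and 365. All 8 myoblast markers were measured. By edgeR's test 1 of them, ct, was lower in Antp RNAi at an adjusted p under 0.05 (2.58% of all genes tested passed). An unadjusted p under 0.05 was reached by 5 of the 8 (11.5% of all genes), and DESeq2 also called zfh1 higher (adjusted p = 0.0204). Of 6 hemocyte (blood cell) markers 3 were tested and 2 were lower in Antp RNAi. The summed level of the list was 154 to 172 CPM in the control and 5.90 to 7.65 CPM in Antp RNAi, nearly all of it from Pxn, and Hml, He and eater were at 0 to 10 counts in every library. Of 4 tracheal markers Gasp alone fell, and with it the summed level of that list (11.4 to 13.0 CPM in the control, 8.14 to 8.29 CPM in Antp RNAi), while trh, btl and kni had log2 fold changes of 0.27 to 0.56 that did not pass the test. Of 6 disc epithelium markers 0 passed 0.05. Their summed level, most of it from shg and ap, was 990 to 1108 CPM in the control and 798 to 920 CPM in Antp RNAi, while nub had a log2 fold change of 1.10. The part of blood, tracheal or disc epithelial cells in the differences below was not tested.

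Most of these noncoding genes lay on top of protein-coding exons. From the exon coordinates of the count table (dm6), 266 of the 289 (92.0%) shared at least 1 exonic base with an exon of a coding gene, 231 on the opposite strand only, 21 on the same strand only and 14 on both. Among the 2101 noncoding genes below 5 CPM the share was 365 (17.4%), and among the 842 with 0 counts in all libraries it was 79 (9.38%). Reads over a shared coding exon also entered the CPM used by the rule. Overlap with an expressed coding gene can thus by itself lift a noncoding gene over 5 CPM. The contrast between these shares is therefore not independent of how the genes were chosen, and is given as a description. Of the asRNA genes 223 of 225 overlapped a coding exon, and of the lncRNA genes 43 of 64. The 289 genes held 406.696 kb of exons, of which 218.511 kb (53.7%) were also exon of a coding gene.

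**Figure D1:**
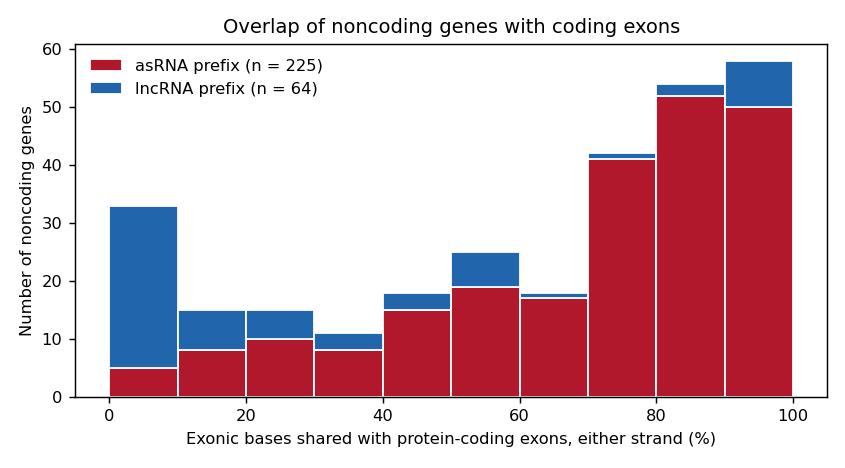
The histogram shows the percentage of each noncoding gene's exonic bases that are shared with protein-coding exons on either strand (x axis, bins of 10 points) against the number of genes (y axis), for the 225 asRNA genes and the 64 lncRNA genes stacked. The asRNA genes pile up at the right, with a median of 78.1% shared, while the lncRNA genes have a median of 16.2% and many share nothing.

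The extent of sharing was large. Among the 266 overlapping genes the median shared portion was 76.0% of the exonic bases, 112 genes shared over 80%, 58 shared over 90% and 25 lay wholly within coding exons, while only 10 shared under 10%. These 266 genes formed 313 pairs with 305 coding genes, 276 pairs on opposite strands and 37 on the same strand. Of the 305 coding partners 291 were at 5 CPM or more, and the median of the partners was 87.4 CPM, against a median of 60.6 CPM over the 6784 coding genes at 5 CPM or more. A partner's count includes reads over the shared bases, which also entered the level used by the rule. The partner levels are thus not independent of how the noncoding genes were chosen.

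Reads over the shared bases were counted for both genes whatever their strand. The direct case was asRNA:CR43465 on the minus strand of chromosome arm 2L (5969859 to 5971025), whose single exon of 1167 bases has the same coordinates as that of Ucp4B, a mitochondrial uncoupling protein gene on the plus strand. Both genes had 752 and 595 counts in the controls against 611 and 332 under Antp RNAi. Of 109 sets of genes with identical exons in the annotation used for counting, 98 had counts, and all 98 had equal counts in every library. Only the Ucp4B pair among these 98 is on opposite strands, so the other sets bear on shared counting and not on strand. On opposite strands too, asRNA:CR45778 (2L, 11011162 to 11012135, minus strand) covers all 824 bases of dUTPase, the enzyme that keeps uracil out of DNA, and had 15094, 16032, 9996 and 13512 counts where dUTPase had 15093, 16027, 9994 and 13510. The 2 genes thus differed by 1 to 5 counts per library.

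The counts of most overlapping genes were close to those computed from the counts of their partners. For each gene the count expected from its shared bases was computed at the mean density of the coding partner, as if every read came from the partner and were spread evenly along it. The ratio of observed to expected counts had a median of 1.11 over the 266 genes (quartiles 0.933 and 1.41), and 174 lay within 1.5-fold of 1. In the 112 genes with over 80% shared bases the median was 1.10 and the Pearson r of the log counts was 0.908. In the 85 genes with 50 to 80% it was 1.11 with an r of 0.805, and in the 69 genes with at most 50% it was 1.27 with an r of 0.572. Within 1.5-fold of 1 lay 85 of the 112, 58 of the 85 and only 31 of the 69. The correlations run across genes that share reads with the value they are set against, and genes are not independent replicates. A partner's count already holds the reads over the shared bases, including any from the noncoding gene. A ratio near 1 is thus partly built in where sharing is high, and which gene the reads came from was not tested.

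**Figure D2:**
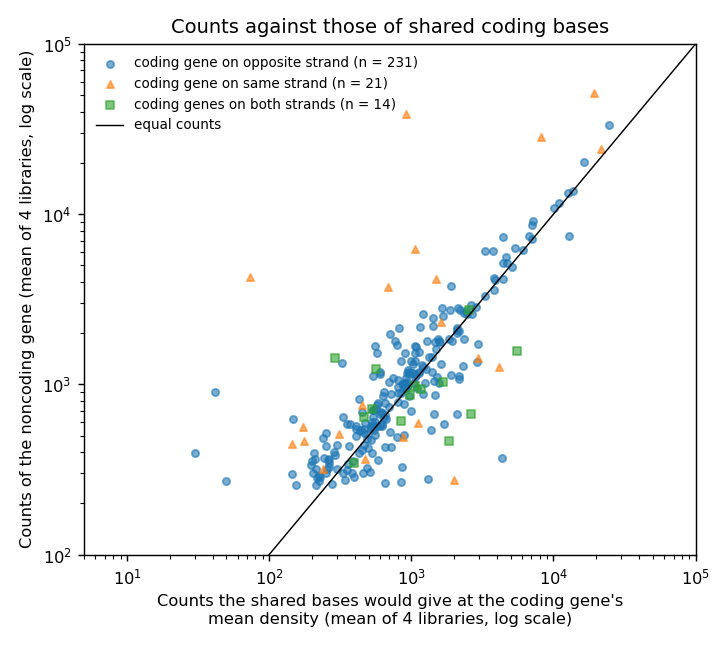
Each point is 1 of the 266 noncoding genes that overlap a coding exon, with the count expected from the shared bases at the coding gene's mean density on the x axis and its own count on the y axis (both means of the 4 libraries, log scales) and the marker giving the strand of the coding gene. Most points lie along the line of equal counts (median ratio 1.11), and 14 lie more than 3-fold above it.

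A minority had counts well above the expected ones. The ratio was above 3 in 14 genes and above 10 in 4 of them, lncRNA:CR42549 within mura (58.7), lncRNA:CR42862 beside CG33229 (42.3), asRNA:CR43812 on CG8908 (21.8) and asRNA:CR44030 on fuss (13.1), genes chosen here after their values were seen. A stricter bound takes every count of all the coding partners away from the noncoding gene. Only 12 of the 266 exceeded their partners' totals in every library, and in 10 of these 12 the excess over the 4 libraries together was under 14% of their counts. The exceptions were lncRNA:CR42862, with 83.1% of its counts over the 4 libraries together beyond those of CG33229, and asRNA:CR45171, with 41.8% beyond those of the cuticle protein gene Cpr67Fb. lncRNA:CR42862 (3L, 224106 to 230964) shares only 246 of 5485 exonic bases and had 48117, 48723, 32746 and 25535 counts against 7696, 6986, 6161 and 5337 for CG33229. asRNA:CR45171 had 652 and 441 counts in the controls against 499 and 345 under Antp RNAi, and Cpr67Fb had 369, 253, 299 and 207.

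The noncoding genes took a small part of the counts and a few of them carried much of it. They held 1.49% and 1.47% of all counts in the controls, against 1.44% and 1.33% under Antp RNAi. The 6 highest by CPM carried 36.1% of their counts. Genes with coding overlap, whose counts include reads over coding exons, held 1.25% and 1.24% in the controls and 1.23% and 1.20% under Antp RNAi. Those without coding overlap held 0.238% and 0.226% against 0.214% and 0.134%. The part of the RNA that came from the noncoding genes themselves was not measured. The median level was 18.4 CPM, and per kilobase of exon it was 19.9 CPM per kb against 25.6 CPM per kb for the 6784 coding genes at the same minimum level, whose exons were longer (median 2256 bases against 958). Genes without coding overlap had a median of 10.9 CPM per kb and overlapping genes 20.7 CPM per kb.

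lncRNA:Hsromega (3R, 21296127 to 21317836, plus strand), the heat-shock-inducible speckle RNA, was the highest by CPM and shares no base with a coding exon. It had 101586 and 96977 counts in the controls against 73050 and 41528 under Antp RNAi, or 1856 ± 82.4 CPM and 1311 ± 599 CPM (SD, n = 2 each). Both Antp RNAi libraries were below both controls, but they stood 1.96-fold apart from each other, and the log2 fold change of −0.49 (SE 0.25) did not pass the test (adjusted p = 0.535). Without Antp RNAi replicate 1 the log2 fold change was −1.03, and without replicate 2 it was −0.08. Each of these fits leaves a lone Antp RNAi library, so that the spread within that group is not measured. Hsromega made up 12.8%, 12.2%, 12.1% and 6.65% of the counts of the whole set, and from 66.0% to 80.9% of the counts of the genes without coding overlap.

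The next by CPM all shared exons with coding genes. lncRNA:CR42491 (X, 762615 to 763810, minus strand), at 1041 CPM the highest per length with 1394 CPM per kb, lies on the strand of the ribosomal protein gene RpL22, shares 50.5% of its bases with it and holds snoRNA:Psi18S-531 in its span. lncRNA:CR42862, described above, was at 783 CPM (143 CPM per kb). asRNA:CR45926 crosses the histone chaperone gene Nap1 with 81.0% of its bases and was at 679 CPM (519 CPM per kb). lncRNA:CR44999 shares 91.8% of its bases with the growth regulator Myc on the same strand and was at 586 CPM (289 CPM per kb), with counts 3.45 times those expected at the mean density of Myc. lncRNA:CR45184 shares 94.7% with the splicing factor gene Sf3b3, spans 5 snoRNAs of the methylation guide class and was at 495 CPM (187 CPM per kb). Per kilobase, asRNA:CR45778 on dUTPase (284 CPM per kb), asRNA:CR31144 on RpL3 (270 CPM per kb) and asRNA:CR45874 on RpS9 (268 CPM per kb) completed the 6 highest. None of these 8 genes past Hsromega passed the test between the groups, the log2 fold changes lying between −0.44 and 0.16. That of lncRNA:CR42862 (−0.44, adjusted p = 0.263) was −0.69 without Antp RNAi replicate 1 and −0.20 without replicate 2, each fit with a lone Antp RNAi library.

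A pair of genes with a described function stood near the bottom of the range. lncRNA:CRG, known as a regulator of the scaffold gene CASK and of locomotion, lies wholly within CASK exons on the same strand and had 291, 308, 277 and 221 counts, 0.138 times the count expected at the mean density of CASK. lncRNA:sphinx, a young gene of chromosome 4 known for its part in male courtship, overlaps fuss and had 296, 333, 217 and 239 counts, 5.49 times the expected count. Neither differed between the groups beyond the spread (CRG log2 fold change 0.03, adjusted p = 0.987, and sphinx −0.18, adjusted p = 0.848). On their own strand, 0 genes of the set held a microRNA in their span and 2 held snoRNAs.

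Few noncoding genes differed between Antp RNAi and control, at a rate close to that of all genes. With edgeR's quasi-likelihood test and Benjamini-Hochberg adjustment over 10360 genes, 1 of 289 passed 0.001, the threshold of the study's methods (0.346%, against 0.463% of all genes tested), and 8 passed 0.05 (2.77%, against 2.58%), 5 higher (1.36% of all genes were called higher) and 3 lower (1.22% lower) in Antp RNAi. An unadjusted p under 0.05 was reached by 27 of 289, against 11.5% of all genes. In CPM both Antp RNAi libraries lay on 1 side of both controls for 124 of 289 (42.9%, against 40.7% of all genes), 50 higher and 74 lower (1698 and 2521 over all genes). The median log2 fold change was −0.03 in the set and −0.01 over all genes. A change of over 1 on the log2 scale was found in 7 of the 289. It was found in 637 of all 10360 genes tested and in 103 of the 6784 coding genes at 5 CPM or more. DESeq2 called 8 at 0.001 (2.12% of its genes) and 13 at 0.05 (4.13%). Leaving out 1 Antp RNAi library raised the number of calls at 0.05, but the share of all genes called in those fits is not given here. The median log2 fold change ran from −0.042 to 0.0036 without 1 library.

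**Figure D3:**
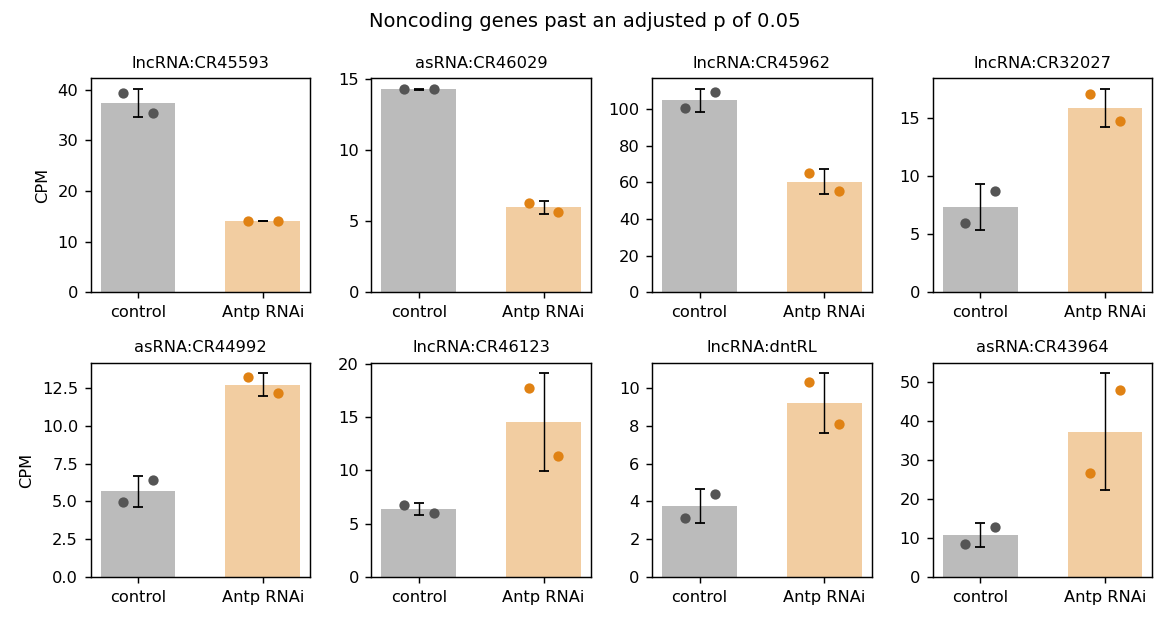
Each panel is 1 of the 8 noncoding genes with an adjusted p under 0.05, with CPM on a y axis from 0, points for the 2 libraries of each group, bars for their mean and error bars for the SD. In all 8 panels both Antp RNAi points lie on 1 side of both control points, from lncRNA:CR45593 (37.4 to 14.1 CPM) to asRNA:CR43964 (10.7 to 37.3 CPM).

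The 3 that fell all overlapped coding genes that fell. lncRNA:CR45593 (3R, 6761513 to 6763478, minus strand) had 2090 and 1907 counts in the controls against 593 and 657 under Antp RNAi, or 37.4 ± 2.85 and 14.1 ± 0.0345 CPM (SD, n = 2 each). It was the only one past 0.001 (log2 fold change −1.39, SE 0.13, adjusted p = 9.80e-04), a call that was lost with median-of-ratios factors (adjusted p = 0.00118), upper-quartile scaling (0.00116), limma-voom (0.00151) and a minimum mean of 100 counts (0.0012). It lies in the Antennapedia complex and shares 102 bases, 7.25% of its exons, with Ama on the opposite strand, a secreted immunoglobulin-superfamily adhesion protein. Ama went from 48330 and 46215 counts to 13510 and 15512 (log2 fold change −1.42, SE 0.10, adjusted p = 3.54e-04), and at the mean density of Ama those 102 bases would give 123% of the counts of CR45593.

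asRNA:CR46029 (3R, 16473229 to 16480850, minus strand) runs across the pair Gyc89Db and Gyc89Da, genes of atypical soluble guanylyl cyclase subunits, with 61.4% of its 7622 bases. Its counts were 761 and 771 in the controls against 265 and 265 under Antp RNAi (14.3 ± 0.0334 and 5.98 ± 0.447 CPM, log2 fold change −1.24, SE 0.16, adjusted p = 0.00569). Gyc89Db fell more, from 597 and 671 counts to 78 and 69 (log2 fold change −2.82, adjusted p = 3.76e-04), whereas Gyc89Da had 185 and 122 against 171 and 174 (0.45, adjusted p = 0.668). The shared bases would give 90.1% of the counts of CR46029 at the densities of these 2 genes.

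lncRNA:CR45962 (3L, 22348168 to 22407547, minus strand) shares 25.4% of its exonic bases with the teneurin gene Ten-m, a transmembrane cell-surface protein, on the same strand. It had 5324 and 5897 counts in the controls against 2742 and 2595 under Antp RNAi (105 ± 6.36 and 60.3 ± 6.85 CPM, log2 fold change −0.78, SE 0.12, adjusted p = 0.0111). Ten-m went from 37355 and 39567 counts to 21472 and 20820 (log2 fold change −0.58, adjusted p = 0.0261). Here the shared bases would give 36.0% of the counts of CR45962 at the mean density of Ten-m.

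Among the 5 that rose, 2 overlapped coding genes that rose. asRNA:CR43964 (2R, 18775411 to 18777166, plus strand) had 455 and 695 counts in the controls against 1123 and 2245 under Antp RNAi (10.7 ± 3.05 and 37.3 ± 15.1 CPM), a log2 fold change of 1.82 (SE 0.30, adjusted p = 0.0167). It shares 76.1% of its bases with CG15093 on the opposite strand, whose counts were 496 and 775 against 1248 and 2446 (log2 fold change 1.81, adjusted p = 0.0167), and which would give 95.4% of its counts. asRNA:CR44992 (2L, 8703475 to 8705450, plus strand) lies within Hnf4, a nuclear receptor of lipid metabolism, and shares 9.38% of its bases with Hnf4 exons. It had 263 and 346 counts against 559 and 571 (5.68 ± 1.03 and 12.7 ± 0.762 CPM, log2 fold change 1.18, SE 0.19, adjusted p = 0.0156). Hnf4 rose from 5106 and 5973 counts to 10065 and 8886 (log2 fold change 1.07, adjusted p = 0.00441), and the shared bases would give 57.8% of the counts of CR44992. Over its other bases, reads from unspliced Hnf4 RNA cannot be told apart from those of CR44992.

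**Figure D4:**
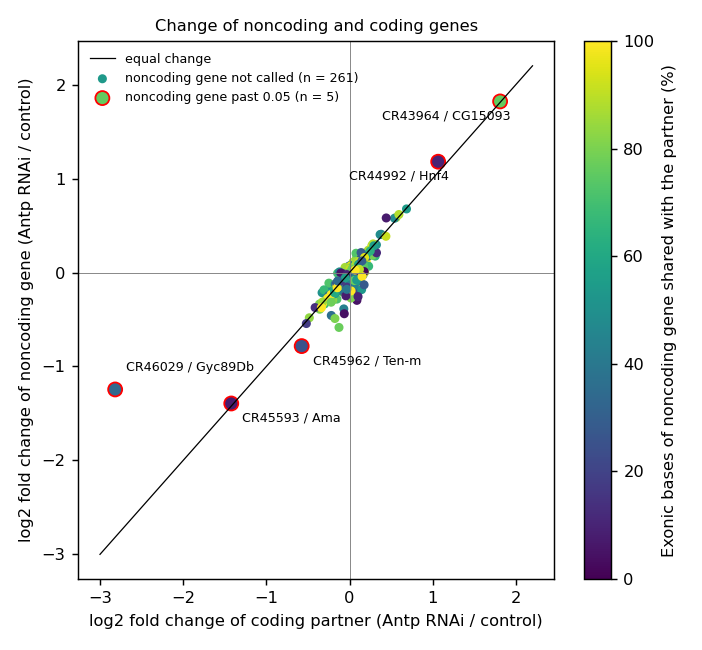
Each point is 1 of the 266 overlapping noncoding genes, with the log2 fold change (Antp RNAi over control) of the coding gene it shares most bases with on the x axis and its own on the y axis, coloured by the percentage of its exonic bases shared with that gene. The points follow the line of equal change, and of the 5 past an adjusted p of 0.05 (red rims) asRNA:CR46029 stands farthest from it, at −1.24 against −2.82 for Gyc89Db.

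Across the overlapping genes the fitted change was close to that of the coding gene beneath. Against the partner with most shared bases, the 266 log2 fold changes had a Pearson r of 0.881 and a median absolute difference of 0.03. For the 106 genes with over 80% of their bases in that partner the median difference was 0.02 and r was 0.926, and for the 79 with at most 50% it was 0.07 and r was 0.852. The pairs share reads and libraries, so these are descriptions. Of 304 coding partners tested 7 passed 0.05, against 2.58% of all genes tested and 2.68% of the coding genes at 5 CPM or more. Of these 7, 5 were the partners of the 5 called overlapping genes, with which they share reads. The others were Act87E, an actin gene that shares 60 bases with lncRNA:CR45591 (−0.52 for Act87E, −0.54 for CR45591 with adjusted p = 0.147), and Trf4-1, a noncanonical poly(A) polymerase gene, with 88.3% of asRNA:CR46195 (0.59 for Trf4-1, 0.62 for CR46195 with adjusted p = 0.0589).

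The 23 genes that share no exonic base with a coding gene are those whose counts no coding exon of the annotation overlaps. Of these 14 lay outside coding genes and 9 within the span of a coding gene, where reads from unspliced RNA of the host cannot be told apart from theirs. At 0.05 they held 3 of the 8 called genes (13.0%, against 2.58% of all genes tested), all higher in Antp RNAi, but lncRNA:dntRL among them reached 5 CPM only through its Antp RNAi libraries, which ties its place in the set to its rise. Of the 20 with both group means at 5 CPM or more 2 were called (10%), and counts this small are given as a description. By edgeR 0 passed 0.001, where DESeq2 called 3 (2.12% of its genes), and an unadjusted p under 0.05 was reached by 6 of the 23 (11.5% of all genes). Their median log2 fold change was −0.18, 18 of 23 lay below 0 (5440 of 10360 over all genes), and in 15 the groups did not overlap, 4 higher and 11 lower (40.7% of all genes, 1698 higher and 2521 lower).

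**Figure D5:**
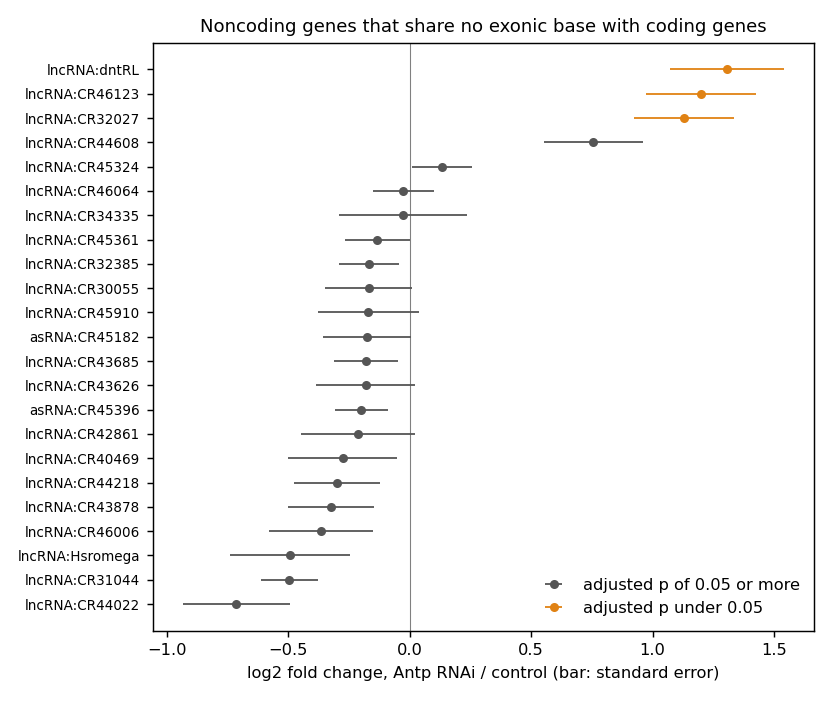
Points are the log2 fold changes (Antp RNAi over control, x axis) of the 23 noncoding genes that share no exonic base with a coding gene, with bars for the standard error and colour for an adjusted p under 0.05. The 3 called genes stand at 1.13 to 1.31, lncRNA:CR44608 follows at 0.76, and 18 of the 23 points are below 0.

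lncRNA:dntRL (2R, 4621118 to 4622481, minus strand) had 166 and 237 counts in the controls against 435 and 379 under Antp RNAi, or 3.76 ± 0.895 and 9.21 ± 1.58 CPM (SD, n = 2 each). Its control mean was under 5 CPM, so it entered the set only through the Antp RNAi libraries where it is high, and its log2 fold change of 1.31 (SE 0.24, adjusted p = 0.0270 over all genes) is not independent of its place in the set. The coding gene CG17486, 285 bases away, had 2081 and 2456 counts against 1725 and 1877 (log2 fold change −0.05, adjusted p = 0.943).

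lncRNA:CR32027 (3L, 18841579 to 18842786, plus strand) lies within the span of Indy, a citrate transporter gene known for its effect on lifespan. It had 315 and 469 counts in the controls against 716 and 688 under Antp RNAi (7.31 ± 1.95 and 15.9 ± 1.63 CPM), a log2 fold change of 1.13 (SE 0.21, adjusted p = 0.0274). Indy had 8157 and 8374 counts against 7997 and 8404 and its log2 fold change was 0.27 (adjusted p = 0.288).

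lncRNA:CR46123 (3R, 1366234 to 1366601, minus strand) is a single exon of 368 bases within the span of the myosin gene Myo81F. It had 360 and 322 counts in the controls against 748 and 529 under Antp RNAi (6.38 ± 0.576 and 14.5 ± 4.57 CPM), a log2 fold change of 1.20 (SE 0.23, adjusted p = 0.0317). Myo81F itself had 1, 2, 4 and 5 counts, so that its exons carried almost no reads in any library. Without 1 library the log2 fold changes ranged from 1.11 to 1.57 for dntRL, 0.90 to 1.43 for CR32027 and 0.86 to 1.49 for CR46123.

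The other genes without coding overlap, named because the coordinates set them apart, did not pass 0.05. The lowest log2 fold change was that of lncRNA:CR44022, within the receptor phosphatase gene Ptp99A, with 342 and 396 counts against 155 and 216 (−0.71, SE 0.22, adjusted p = 0.194). Its Antp RNAi mean was under 5 CPM, so it entered the set only through the controls where it is high. Its fall is thus not independent of its place in the set. lncRNA:CR31044, 505 bases from the translation factor gene eEF1gamma, had 2537 and 2747 counts against 1389 and 1695 (−0.50, SE 0.12, adjusted p = 0.0793), and was the 1 of the 23 that DESeq2 called lower (adjusted p = 0.0234). lncRNA:CR44608, 360 bases from RpL40, had 241 and 227 counts against 335 and 313 (0.76, SE 0.20, adjusted p = 0.125). Its control mean was 4.37 CPM, so it entered the set only through the Antp RNAi libraries. In each of these 3 both Antp RNAi libraries stood on 1 side of both controls.

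Other abundant genes of this kind were lncRNA:CR34335, asRNA:CR45396, lncRNA:CR45324 and lncRNA:CR40469. lncRNA:CR34335, a 361-base gene within the surface receptor gene DIP-alpha on the X, had 4104 and 3413 counts in the controls against 1982 and 4157 under Antp RNAi, so its Antp RNAi libraries were 1.89-fold apart on either side of the controls. asRNA:CR45396 had 3559, 3759, 2382 and 2865 counts (log2 fold change −0.20), both Antp RNAi libraries below both controls in CPM. lncRNA:CR45324, between eve and Pka-R2, had 1656, 1833, 1411 and 1738 (0.13). lncRNA:CR40469 had 1903, 1659, 864 and 1579 (−0.27), with 1 control library between the Antp RNAi libraries in CPM and the other above both.

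The remaining 12 genes had mean levels of 5.44 to 28.1 CPM and log2 fold changes from −0.36 to −0.03, all with adjusted p of 0.583 or more. They include lncRNA:CR32385 within Galphai, lncRNA:CR43878 within the RNA-binding protein gene mub, lncRNA:CR30055 within the co-repressor gene Sin3A, lncRNA:CR44218 within the chromatin remodeller gene kis and lncRNA:CR45910 within the RNA-binding protein gene msi. The longest, lncRNA:CR46006, with 10235 exonic bases, had 593 and 622 counts against 296 and 485 (−0.36). Outside coding genes, at similar levels, lay lncRNA:CR46064, lncRNA:CR43685, lncRNA:CR43626, lncRNA:CR42861 and asRNA:CR45182, and lncRNA:CR45361 shares exonic bases with another noncoding gene.

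The spread between replicates was like that of other genes. The median absolute log2 difference between the control libraries was 0.09 in the set and 0.11 over all genes tested, and between the Antp RNAi libraries it was 0.18 and 0.20. All genes tested include genes at lower levels. Over the coding genes at 5 CPM or more the median differences were 0.08 (control) and 0.18 (Antp RNAi). The Antp RNAi libraries stood farthest apart for asRNA:CR44275, which shares 80.4% of its bases with dpn, a neural stem cell repressor gene. It had 469 and 212 counts there (2.46-fold apart in CPM), and dpn had 663 and 284. asRNA:CR43465, with the counts of Ucp4B given above, followed at 2.05-fold and Hsromega at 1.96-fold.

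By the rule's threshold, the 2 noncoding genes just outside were asRNA:CR44807 at 4.84 CPM and lncRNA:CR44417 at 4.98 CPM, and the 2 just inside were asRNA:CR44982 at 5.20 CPM and asRNA:CR44046 at 5.25 CPM. All 289 genes passed the filter on low counts, the lowest count in any library being 155. In 272 of them every library was at 5 CPM or more, 2 had a control mean under 5 CPM (dntRL and CR44608) and 3 an Antp RNAi mean under 5 CPM (CR44022, asRNA:CR45951 and asRNA:CR44982). Among proteins that bind or process noncoding RNA, such as Hrb87F and TBPH of the omega speckles and the snoRNA-associated Nop60B and Fib, 9 of 10 listed genes were found. Of these 0 passed 0.05 in edgeR (2.58% of all genes tested did) and 0 in DESeq2 (4.13% of its genes). An unadjusted p under 0.05 was reached by 1 (11.5% of all genes), and so few genes allow only a description. Their median log2 fold change was 0.02 against −0.01 over all genes.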

How the data were processed

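The deposited gene table of the authors holds whole-number read counts per gene over exons (dm6), made with featureCounts of the Subread package after bcl2fastq 2.17.1.14, per the submitters' processing notes. The aligner and the settings for strand and for overlapping genes are not given in the sources used here. A second deposited table holds the authors' DESeq2 comparison, with a mean normalised signal, log2 fold changes and their errors, p-values and a test score, of which only the gene symbols were used. Levels are CPM from column totals, with no weighting for cDNA amplification (10 cycles) and library amplification (12 cycles).

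The count test was edgeR 4.0.16 (quasi-likelihood, TMM, filterByExpr with a minimum count of 10, 10360 genes, two-sided, Benjamini-Hochberg over all genes, R 4.3.3), at the study's threshold of 0.001 and at 0.05. DESeq2 1.42.0, limma-voom 3.58.1, other scalings and filters and leaving out each library were alternatives. Scripts were tested on simulated counts. The common biological coefficient of variation was 13.2%. Exon overlap was computed from the count table's coordinates with Python 3.11.15, and coding status came from the Ensembl release 115 annotation (17358 of 17494 identifiers matched, all 289 members among them).

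The members and gene lists were chosen with earlier results of these data known. The text names the genes past 0.001, up to 5 risers and 5 fallers at 0.05, the 6 highest by CPM and by CPM per kb, the 2 genes on either side of 5 CPM, noncoding RNAs with a described role, the 3 with the largest replicate gap, snoRNA hosts and the coding partners of the called genes. Genes outside this rule are the 23 without coding overlap and those said to be chosen after their values were seen. A count of 0 allows up to 3 counts in a library, for counting error only.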

Additional observations from a re-analysis of the deposited data

How the results depend on the processing

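No paired analysis was possible because only replicate number 2 occurs in both groups. With 2 libraries per group, leaving out 1 library leaves a group with a lone library that is assumed to vary like the other group, and gaps within a group could not be tested. At an adjusted p under 0.001 (1 gene) the count was 0 with median-of-ratios factors, upper-quartile scaling, limma-voom, a mean of at least 100 counts or the genes without coding overlap alone, 3 with every gene of at least 1 count, 8 with DESeq2 and 3 to 6 without 1 library. At 0.05 (8 genes) it was 13 with DESeq2, 3 among the genes without coding overlap and 8 to 33 without 1 library. The median log2 fold change (−0.03) was −0.18 in the genes without coding overlap and ran from −0.042 to 0.0036 without 1 library.

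The number of genes in the set was 381 at 2 CPM and 219 at 10 CPM, of which 325 and 203 overlapped coding exons. The overlap held for 256 genes at 100 shared bases or more and for 197 at 50% or more of the exonic bases. Requiring 5 CPM in both group means, a choice made after seeing the data, left 284 genes. Of these 1 passed 0.001 and 7 passed 0.05, against 0.463% and 2.58% of all genes tested. Without 1 library the log2 fold changes of genes that were not called crossed 0, ranging from −0.22 to 0.14 for asRNA:CR31144, −0.79 to 0.22 for asRNA:CR43465, −0.23 to 0.30 for asRNA:CR44046, −1.09 to 0.18 for asRNA:CR44275, −0.28 to 0.029 for asRNA:CR45778, −0.48 to 0.061 for asRNA:CR45874, −0.028 to 0.18 for asRNA:CR45926, −0.22 to 0.40 for lncRNA:CR44999 and −0.21 to 0.25 for lncRNA:CRG. The cause of these changes was not tested. Among 23 named genes and 11 settings, 213 values kept their direction and side of 0.001, 24 passed it in addition and 4, all of lncRNA:CR45593, no longer passed 0.001. At 0.05, 8 values of 8 genes that were not called passed when 1 Antp RNAi library was left out, those of Hsromega, CR42862, CR42491, CR43465, CR44275, CR45778, CR45874 and CR44999, and 0 of the called genes' values were lost.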

Other observations

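The dosage compensation RNAs that the rule leaves out were measured in all libraries. lncRNA:roX1 had 517 and 496 CPM in the control and 581 and 571 CPM in Antp RNAi (log2 fold change 0.20, adjusted p = 0.496), and the summed level of roX1 and roX2 was 533 to 552 CPM and 602 to 623 CPM. The well-expressed noncoding genes lay on every major arm, 77 on 3R, 68 on 3L, 52 on 2L, 47 on 2R, 38 on the X and 7 on chromosome 4, with median log2 fold changes from −0.07 on 3L to −0.01 on 3R. In the 10.3 Mb of 3R from lab to Abd-B, which holds both Hox complexes, lay 23 of them, of which 2, lncRNA:CR45593 and asRNA:CR46029, passed 0.05 (2.58% of all genes tested did) and 1 shared no coding exon.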
